A study of Rattus norvegicus with 24 samples.

Results

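The collagen genes of the rat hippocampus were taken as every gene of the deposited expression table whose symbol has the form Col, a number, a and a number. There were 43 such genes among 20318 features. By type they comprised 11 genes of the fibrillar collagens, 6 genes of the basement membrane collagen type IV and 26 genes of other types. Of the 43 genes, 42 had a mean of at least 10 normalised counts over all libraries and were tested, among 16119 tested genes. Col17a1, a transmembrane collagen, had a mean of 9.60 and was not tested.

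The libraries were bulk RNA sequencing of hippocampal tissue from female rats, 24 in all, in 4 groups. SHAM rats (n = 7) were 6 months old at surgery, kept their ovaries and received vehicle for 7 weeks. OVX rats (n = 7) had their ovaries removed at 6 months and received vehicle for 7 weeks. Prevention rats (n = 5, OVX_E2_Prevention in the labels) had their ovaries removed at 6 months and received the estrogen E2 (estradiol) for 5 weeks. Treatment rats (n = 5, OVX_E2_Treatment) had their ovaries removed at 6 months and received vehicle for 3 weeks and then E2 for 2 weeks. The sources used here do not give the strain, or the dose and route of E2. The vehicle and estrogen groups also differed in the weeks named, and this difference and the estrogen cannot be told apart.

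Collagens are helical proteins of the extracellular matrix, assembled from alpha chains that separate genes encode. Fibrillar collagens form the fibres of connective tissue, type IV collagen forms the sheet under endothelium and epithelium, and other types link, coat or anchor these structures or span the cell membrane. In the brain most collagen lies in the meninges, in the basement membranes of vessels and in the stroma of the choroid plexus, the tissue that makes cerebrospinal fluid and borders the hippocampus. Neurons and glia make a few collagens, among them Col25a1. Transthyretin (Ttr), the thyroxine carrier of the choroid plexus epithelium, is given beside the collagens because it marks choroid plexus in a dissected piece of hippocampus.

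Each library held 35.4 to 38.8 M normalised counts (M stands for mega), and its depth, estimated from its smallest step, lay between 26.5 and 53.5 M reads. The libraries fell into a high set and a low set by the feature LOC257642, at 16.84 to 19.73 on the log2 scale in 7 libraries and 14.02 to 15.23 in 17. All 5 Prevention libraries and Treatment replicates 1 and 2 made up the high set, with 39.8 to 53.5 M estimated reads against 26.5 to 40.2 M in the low set. The estrogen of the Prevention group and the library set therefore cannot be told apart. All 10 listed markers of hippocampal neurons were above 0 in every library, with summed levels from 24624 to 47823. Nothing in the labels said that each library came from another animal, so p-values measured the spread between these samples, which may be technical. In bulk tissue, fewer cells of a type and less RNA per cell cannot be told apart.

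Ttr differed widely between libraries of the same group. SHAM replicates 1 to 7 held 16597, 384, 23186, 1028, 551, 1068 and 136652 normalised counts of Ttr. OVX replicates 1 to 7 held 1982, 73531, 661, 10032, 565, 41398 and 30370.3. Every group thus had libraries with little Ttr and libraries with much of it. The 5 Prevention libraries held 68774, 9262, 3213, 46279.6 and 798, and Treatment replicates 1, 2, 5, 6 and 7 held 337, 281, 12498, 71606 and 1019. The summed level of 13 choroid plexus markers ran from 3587 to 171078 in SHAM, 4120 to 90076 in OVX, 4250 to 87528 in Prevention and 3458 to 88012 in Treatment. The 12 measured fibroblast markers, which mark meninges and stroma, summed to 3139 to 17156 in SHAM, 3218 to 9700.4 in OVX, 3312 to 8681 in Prevention and 3444 to 9594 in Treatment. The 11 measured endothelial markers varied little, with sums from 12285 to 15155 over all libraries. No measured marker of these 3 lists was at 0 in any library.

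**Figure D1:**
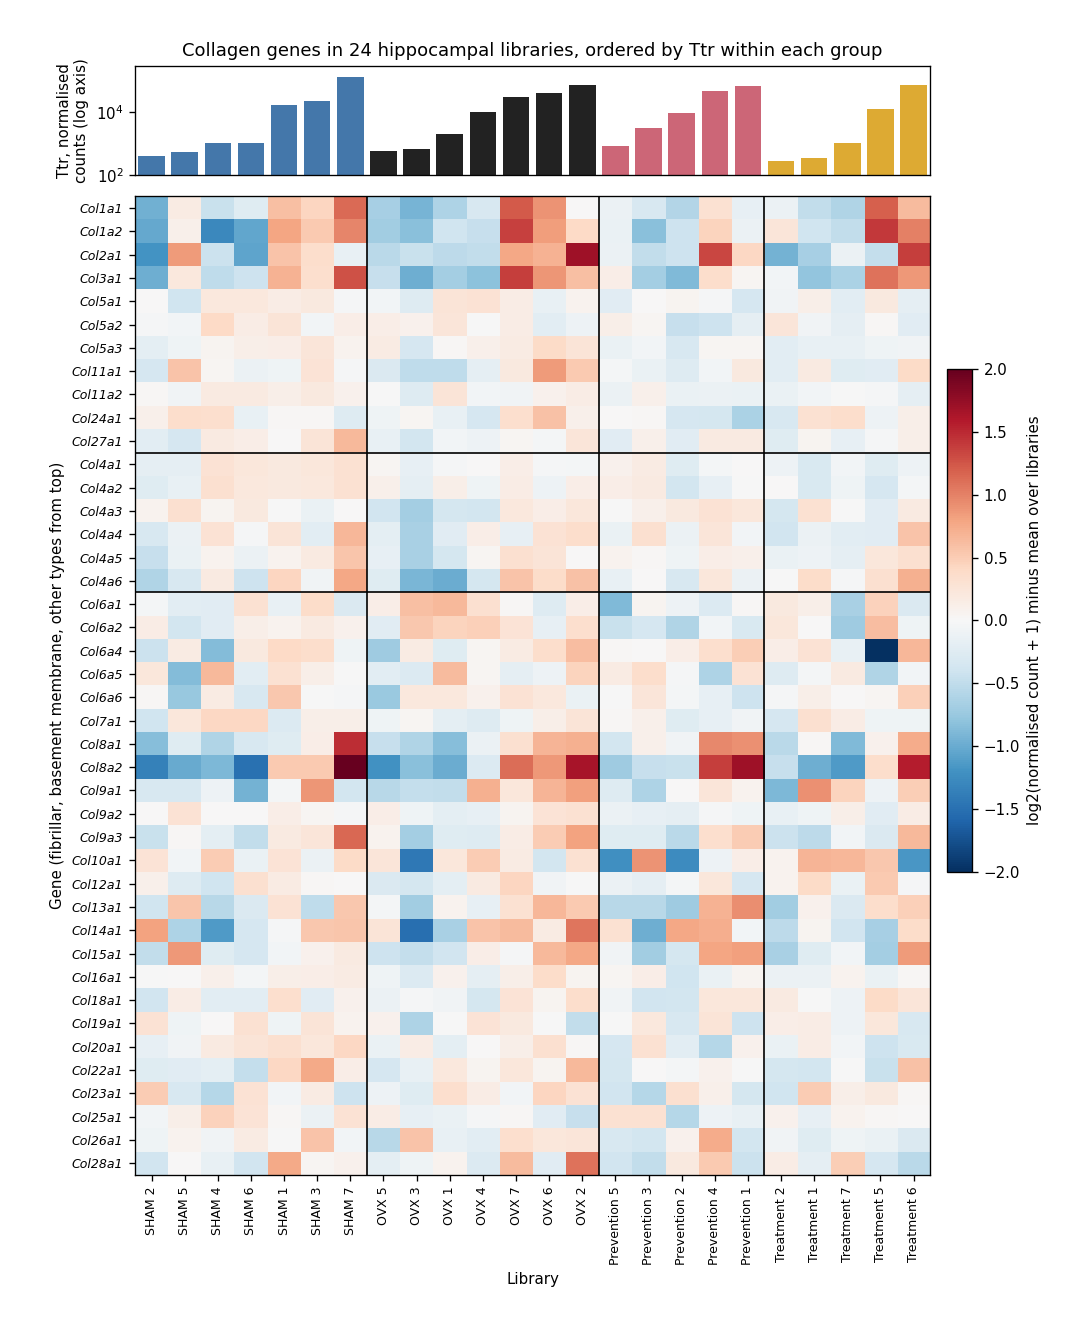
Each row of the heat map is 1 of the 42 tested collagen genes (fibrillar, basement membrane and other types from the top), each column 1 of the 24 libraries, ordered by Ttr within each group, and the colour is log2(normalised count + 1) minus the gene's mean over libraries; the bars above give Ttr in normalised counts on a log axis. In each of the 4 groups Col8a2 is reddest in the library with the most Ttr, while Col4a1, Col4a2 and Col11a2 stay pale.

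The median SD within groups of the tested collagen genes was 0.33 on the log2 scale, against 0.15 for all tested genes. Among the genes described here, the SD was largest for Col8a2, at 1.25, with a highest library 17.2 times the lowest. It was 0.84 for Col2a1, 0.82 for Col1a2 and 0.81 for Col3a1. It was smallest for Col11a2, at 0.12, whose highest library was 1.42 times the lowest. Col4a1 and Col4a2, at 0.15 and 0.19, were nearly as even.

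Of the 42 tested collagen genes, 15 were higher in libraries with more Ttr and 0 were lower. Over all tested genes 4.69% were higher and 1.97% were lower by the same test, limma with the group means and log2(Ttr + 1) in 1 fit and an adjusted p under 0.05. The slope is the log2 change of a gene for each doubling of Ttr within groups. Its median over the collagen genes was 0.032, against -0.00085 over all tested genes. By type, 6 of 11 fibrillar, 3 of 6 basement membrane and 6 of 25 other genes were called. In the 17 low set libraries alone 10 of 42 were called higher, where 3.15% of all tested genes were called higher and 1.02% lower. With the library set as a term 14 of 42 were called higher, against 4.14% higher and 1.81% lower over all tested genes. The levels of Ttr and of the collagens come from the same libraries, so a slope describes which genes varied together within the groups and is no comparison between them.

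Col8a2 had the steepest slope on Ttr and the smallest p of the collagen genes. It encodes a chain of type VIII collagen, a short network-forming collagen known from the cornea and from vessel walls. In SHAM, Col8a2 ran from 63.8 to 1098 with a median of 97.1 normalised counts, and in OVX it ran from 77.7 to 573 with a median of 150.0. The 5 Prevention libraries held 592, 134, 132, 477 and 110.4 in the order used for Ttr, and the 5 Treatment libraries held 92.5, 132, 233, 543 and 82.3. The groups overlapped, and in each group the library with the most Ttr also held the most Col8a2. The slope on Ttr was 0.38 (SE 0.031), with an adjusted p of 6.88e-09 by limma. Its partner chain Col8a1 ran from 194 to 971 with a median of 296 in SHAM and from 194 to 573 with a median of 321 in OVX, with a slope of 0.18 (SE 0.023) and an adjusted p of 1.13e-05 by limma. Col8a1 and Col8a2 varied together over the 24 libraries, with Pearson r = 0.91 and Spearman rho = 0.85. The promoter window of Col8a2 is printed because no collagen gene had a steeper slope on Ttr. It is the 250 bases before the start of the gene, plus strand of GRCr8, chr5:143870519-143870768, from RefSeq, and capitals mark 5 GC boxes, the letters GGGCGG on either strand, of which the last pair overlap.
Col8a2: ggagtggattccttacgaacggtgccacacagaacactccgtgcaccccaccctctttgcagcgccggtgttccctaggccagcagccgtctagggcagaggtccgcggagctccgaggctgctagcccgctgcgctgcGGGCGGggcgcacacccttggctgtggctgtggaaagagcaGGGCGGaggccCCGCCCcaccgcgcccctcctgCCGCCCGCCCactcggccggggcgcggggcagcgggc

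The type I and type III fibrillar genes, which encode the main fibres of meninges and vessel walls, were higher with more Ttr and with higher fibroblast markers. Col1a2, a chain of type I collagen, ran from 166 to 801 with a median of 435 in SHAM and from 227 to 1053 with a median of 307 in OVX. The 5 Prevention libraries held 374, 306, 228, 555 and 369.5, and Treatment replicates 1, 2, 5, 6 and 7 held 309, 479.8, 1082, 816 and 288. High and low libraries occurred in all groups, and Treatment replicate 5, with a Ttr of 12498, held the most Col1a2. Its slope on Ttr was 0.21 (SE 0.035) with a limma adjusted p of 0.000496. Per unit of the mean log2 level of the fibroblast list, the slope of Col1a2 was 1.57 (SE 0.092) with a limma adjusted p of 2.08e-10. Col1a1, its partner chain, had slopes of 0.17 (SE 0.031) on Ttr and 1.32 (SE 0.10) on the fibroblast list. Col3a1, of type III, had slopes of 0.20 (SE 0.036) and 1.49 (SE 0.12). All of these slopes passed, and Col1a1 with Col1a2 gave Pearson r = 0.92 and Spearman rho = 0.89 over 24 libraries. The window of Col1a2 is printed because its slope on the fibroblast list had the smallest p of the collagen genes. It is 250 bases on the plus strand of GRCr8, chr4:33518307-33518556, from RefSeq, and capitals mark a CCAAT box, read on the other strand as ATTGG, and a TATA box, TATAAA.
Col1a2: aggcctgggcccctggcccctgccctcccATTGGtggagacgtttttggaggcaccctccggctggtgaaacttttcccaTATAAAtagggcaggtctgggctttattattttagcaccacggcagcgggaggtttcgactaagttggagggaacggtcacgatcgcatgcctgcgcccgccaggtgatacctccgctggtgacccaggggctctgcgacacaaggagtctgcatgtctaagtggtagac

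Of the other 8 fibrillar genes 3 passed on Ttr. Col5a1, Col5a2 and Col5a3 encode chains of type V collagen, which sets the width of type I fibres. Col5a3 had a slope of 0.032 (SE 0.0092) on Ttr, which passed at a limma adjusted p of 0.0369, and it lost its call without any 1 of 10 libraries, with adjusted p-values of up to 0.0746. Col27a1, a fibrillar collagen of cartilage, had a slope of 0.055 (SE 0.011) with a limma adjusted p of 0.00311. Col11a2, a chain of the cartilage collagen type XI, had a slope of 0.0046 (SE 0.0084) that did not pass (limma adjusted p = 0.801), and neither did those of Col5a1, Col5a2, Col11a1 and Col24a1. Col2a1, the cartilage collagen of type II, ran from 43.9 to 184 with a median of 91.3 in SHAM and from 69.4 to 332 with a median of 74.7 in OVX. Its slope on Ttr was 0.18 (SE 0.042) with a limma adjusted p of 0.00939, which became 0.0532 without Treatment replicate 6, at a slope of 0.16.

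Of the 6 genes of type IV collagen, the network of the basement membrane, 3 passed on Ttr and 3 did not. They lie in 3 pairs of opposite strand, with 76 bases between the starts of Col4a1 and Col4a2, 412 between Col4a3 and Col4a4 and 1414 between Col4a5 and Col4a6 in the RefSeq gene table. Col4a1 and Col4a2, the chains found in nearly all vessel walls, had slopes on Ttr of 0.015 (SE 0.010) and 0.011 (SE 0.013), which did not pass (limma adjusted p = 0.402 and 0.670). They passed on neither the fibroblast nor the endothelial list either, with slopes on the latter of 0.11 (SE 0.26) and -0.10 (SE 0.32). Col4a5 and Col4a6, which form a network in smooth muscle and some epithelia, were higher with more Ttr, at slopes of 0.071 (SE 0.012) and 0.11 (SE 0.024). Their limma adjusted p-values were 0.000423 and 0.00415. Col4a4, known from the kidney glomerulus, had a slope of 0.071 (SE 0.017) with a limma adjusted p of 0.0109. Without Treatment replicate 6, which held 989 of Col4a4 where the other 4 held 511 to 619, that p was 0.0630 at a slope of 0.060. Its partner Col4a3 did not pass, at 0.029 (SE 0.016).

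The chains of a pair varied together to different degrees over the 24 libraries. Col4a1 and Col4a2 gave Pearson r = 0.93 and Spearman rho = 0.92, with r = 0.93 in the 17 low set libraries and 0.92 in the 7 of the high set. Col4a5 and Col4a6 gave Pearson r = 0.83 and Spearman rho = 0.71, with r = 0.87 in the low set and 0.011 in the high set, which has 7 libraries, and the difference between the sets was not tested. Col4a3 and Col4a4 gave Pearson r = 0.48 and Spearman rho = 0.47, with r = 0.50 in the low set and 0.59 in the high set. For this pair r was 0.29 without the 2 libraries farthest from the median of Col4a3. Leaving out 2 libraries in the same way lowered r in the other pairs too, to 0.75 for Col4a5 with Col4a6. These falls were not tested. In the low and high sets r was 0.93 and 0.78 for Col1a1 with Col1a2, and 0.93 and 0.89 for Col8a1 with Col8a2. For Col6a1 with Col6a2 r was 0.76 over all libraries, 0.83 in the low set and 0.48 in the high set. Of these 6 pairs examined, the permutation p for r was 0.0178 for Col4a3 with Col4a4, also after Benjamini-Hochberg adjustment. For the other 5 pairs the adjusted permutation p for r was at most 2.4e-05, where the smallest unadjusted p that the permutations can give is 1e-05. The 76 bases between Col4a1 and Col4a2 are printed because they separate the starts of the genes of the pair with the smallest spread within groups. They lie on the plus strand of GRCr8 at chr16:84885521-84885596. The 250 bases before Col4a3, chr9:91323740-91323989 on the plus strand, are printed beside them because they lie in the gap shared with Col4a4. Capitals mark a GC box in each, GGGCGG or its complement CCGCCC.
Col4a1/Col4a2: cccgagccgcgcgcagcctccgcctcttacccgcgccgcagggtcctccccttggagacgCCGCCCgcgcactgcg
Col4a3: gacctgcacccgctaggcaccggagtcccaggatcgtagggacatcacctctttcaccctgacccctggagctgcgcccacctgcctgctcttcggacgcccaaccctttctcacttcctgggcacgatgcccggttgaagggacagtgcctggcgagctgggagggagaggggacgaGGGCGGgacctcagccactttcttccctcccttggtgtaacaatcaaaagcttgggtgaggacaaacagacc

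Among the other types, Col9a3, Col13a1, Col15a1 and Col22a1 were also higher with more Ttr. Col9a3, a chain of the type IX collagen that coats type II fibres, had a slope of 0.13 (SE 0.020) with a limma adjusted p of 0.000123. It ran from 733 to 2301 with a median of 1051 in SHAM, where replicate 7, the library with the most Ttr, stood alone at the top. Col13a1, a transmembrane collagen known from the neuromuscular junction, had a slope of 0.12 (SE 0.030). Col22a1, a collagen of tissue junctions, had a slope of 0.082 (SE 0.021), with a limma adjusted p of 0.0191 that became 0.0882 without Treatment replicate 6, at a slope of 0.070. Col15a1, a collagen of basement membrane zones, had a slope of 0.11 (SE 0.031) with a limma adjusted p of 0.0393, and leaving out any 1 of 13 libraries ended that call, with adjusted p-values of up to 0.159. The type VI genes Col6a1 and Col6a2, which form beaded filaments, had slopes of -0.010 (SE 0.023) and 0.021 (SE 0.021) and did not pass. Col16a1 had the highest mean of the other types, at 3106 normalised counts. Its slope of 0.019 (SE 0.010) did not pass either (limma adjusted p = 0.281).

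Col15a1 followed Ttr in part, but its highest libraries were not all those with the most Ttr. In SHAM it ran from 117 to 303 with a median of 159, and in OVX from 118 to 282 with a median of 162. The 5 Prevention libraries held 291, 129.6, 102, 286 and 157, and the 5 Treatment libraries held 139.5, 105, 103, 299.9 and 158. The 5 highest libraries were SHAM replicate 5, Treatment replicate 6, Prevention replicates 1 and 4 and OVX replicate 2, at 282 to 303. Those 5 libraries also had the highest summed level of 12 thalamus markers, among them Tcf7l2, a transcription factor of thalamic neurons: 17139 to 22560 against 5151 to 9529 in the other 19. Among them, SHAM replicate 5 held 551 of Ttr, while Treatment replicate 6, Prevention replicates 1 and 4 and OVX replicate 2 held 46279.6 to 73531. SHAM replicate 7, with the most Ttr at 136652, was not among the 5. A slope on the mean log2 level of the thalamus list was therefore added after seeing the data. It called 10 of 42 collagen genes higher and 1 lower, where 7.51% of all tested genes were called higher and 7.97% lower. Col15a1, whose values prompted this slope, had the smallest p, with a slope of 0.75 (SE 0.070) and a limma adjusted p of 7.74e-08. For Col15a1 that p describes a pattern already seen in these libraries and is no separate test of it. Col15a1 is also counted among the 10 genes called higher, and among those called on this list beside Ttr below. Those counts are therefore not separate from the choice of the list. Col2a1 followed at 1.06 (SE 0.13), Col13a1 at 0.61 (SE 0.12) and Col11a1 at 0.37 (SE 0.080). The gene called lower was Col5a2, at -0.15 (SE 0.050), and leaving out any 1 of 12 libraries ended its call, with adjusted p-values of up to 0.107. The window of Col15a1, chr5:66297296-66297545 on the plus strand of GRCr8, is printed because this gene had the smallest p of the collagen genes on the thalamus list. It holds none of the 3 motifs and so has no capitals.
Col15a1: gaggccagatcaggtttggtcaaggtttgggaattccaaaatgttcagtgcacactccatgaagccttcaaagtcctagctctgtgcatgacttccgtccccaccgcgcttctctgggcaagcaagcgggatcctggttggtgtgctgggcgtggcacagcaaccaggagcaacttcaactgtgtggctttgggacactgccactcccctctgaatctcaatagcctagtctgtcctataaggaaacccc

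**Figure D2:**
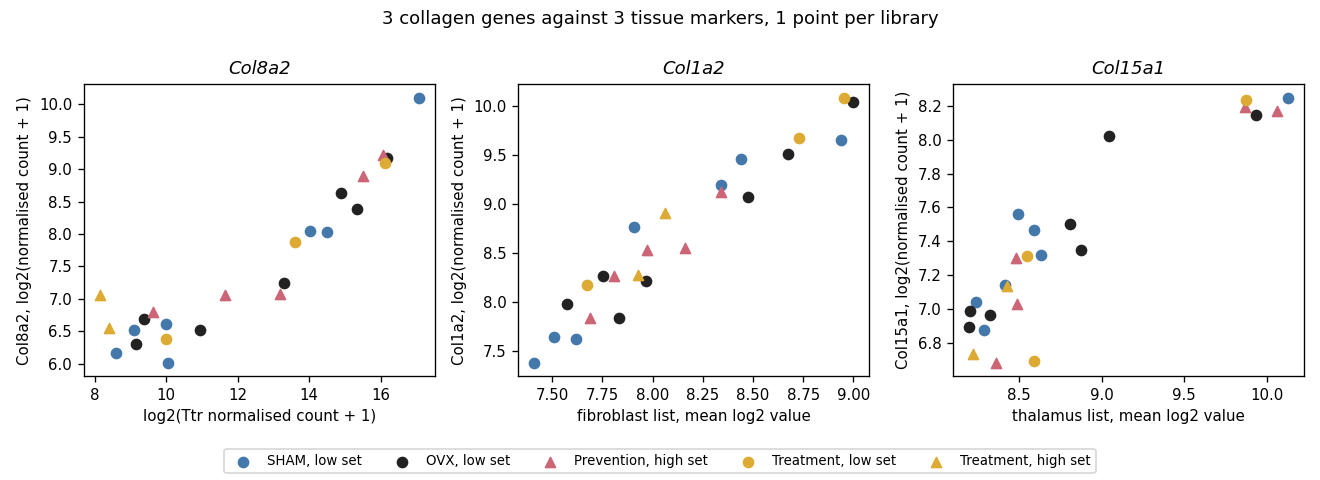
Each point is 1 of the 24 libraries, on log2 axes: Col8a2 against Ttr (left), Col1a2 against the mean level of the fibroblast list (middle) and Col15a1 against that of the thalamus list (right). Colours give the group, circles the 17 low set libraries and triangles the 7 high set libraries; points of all 4 groups lie along the same rising band in the left and middle panels, and in the right panel 5 libraries of all 4 groups stand apart at the upper right, with OVX replicate 6 at a Col15a1 of 258 between them and the rest.

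The marker lists were themselves related over the libraries, with r = 0.77 between Ttr and the fibroblast list, 0.81 between Ttr and the endothelial list and 0.54 between Ttr and the thalamus list (n = 24). Of the 12 fibroblast markers 7 were called higher on Ttr and 0 lower, against 4.69% and 1.97% of all tested genes. The fibroblast list is thus no measure separate from Ttr. Dcn, which is on that list, had a slope on Ttr of 0.042 (SE 0.027) that did not pass (limma adjusted p = 0.373). The fibroblast list called 11 of 42 collagen genes higher and 0 lower, where 3.21% of all tested genes were called higher and 0.664% lower. The endothelial list also called 11 higher and 0 lower, against 3.33% and 1.47%, over a range of only 0.35 on the log2 scale of that list. When Ttr and the fibroblast list stood in 1 fit, 0.316% of all tested genes were called higher and 0.0124% lower on Ttr, with 0.0683% higher and 0% lower on the fibroblast list. Col8a2 was the 1 collagen gene to pass on Ttr, at 0.26 (SE 0.051) with a limma adjusted p of 0.0150. In that fit Col1a1, Col1a2 and Col3a1 passed on the fibroblast list, at 1.46 (SE 0.18), 1.75 (SE 0.17) and 1.65 (SE 0.23). Their slopes on Ttr were then -0.028, -0.036 and -0.030 and did not pass. With Ttr and the thalamus list in 1 fit, 9 of 42 collagen genes were called higher on Ttr, where 2.23% of all tested genes were called higher and 0.534% lower: Col1a1, Col1a2, Col3a1, Col27a1, Col4a5, Col4a6, Col8a1, Col8a2 and Col9a3. There 5 of 42 were called higher and 0 lower on the thalamus list, where 4.82% of all tested genes were called higher and 4.89% lower: Col2a1, Col9a2, Col11a1, Col13a1 and Col15a1. With Ttr in the fit, no collagen gene and no other tested gene (0%) passed on the endothelial list. Col18a1 is a basement membrane collagen close to Col15a1 and was named after its values were seen. With each list alone in the fit, it passed on the fibroblast list at 0.35 (SE 0.077) and on the thalamus list at 0.23 (SE 0.062). Alone in the fit, Ttr gave it no call. Beside Ttr it passed on neither list (limma adjusted p = 0.941 and 0.140).

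**Figure D3:**
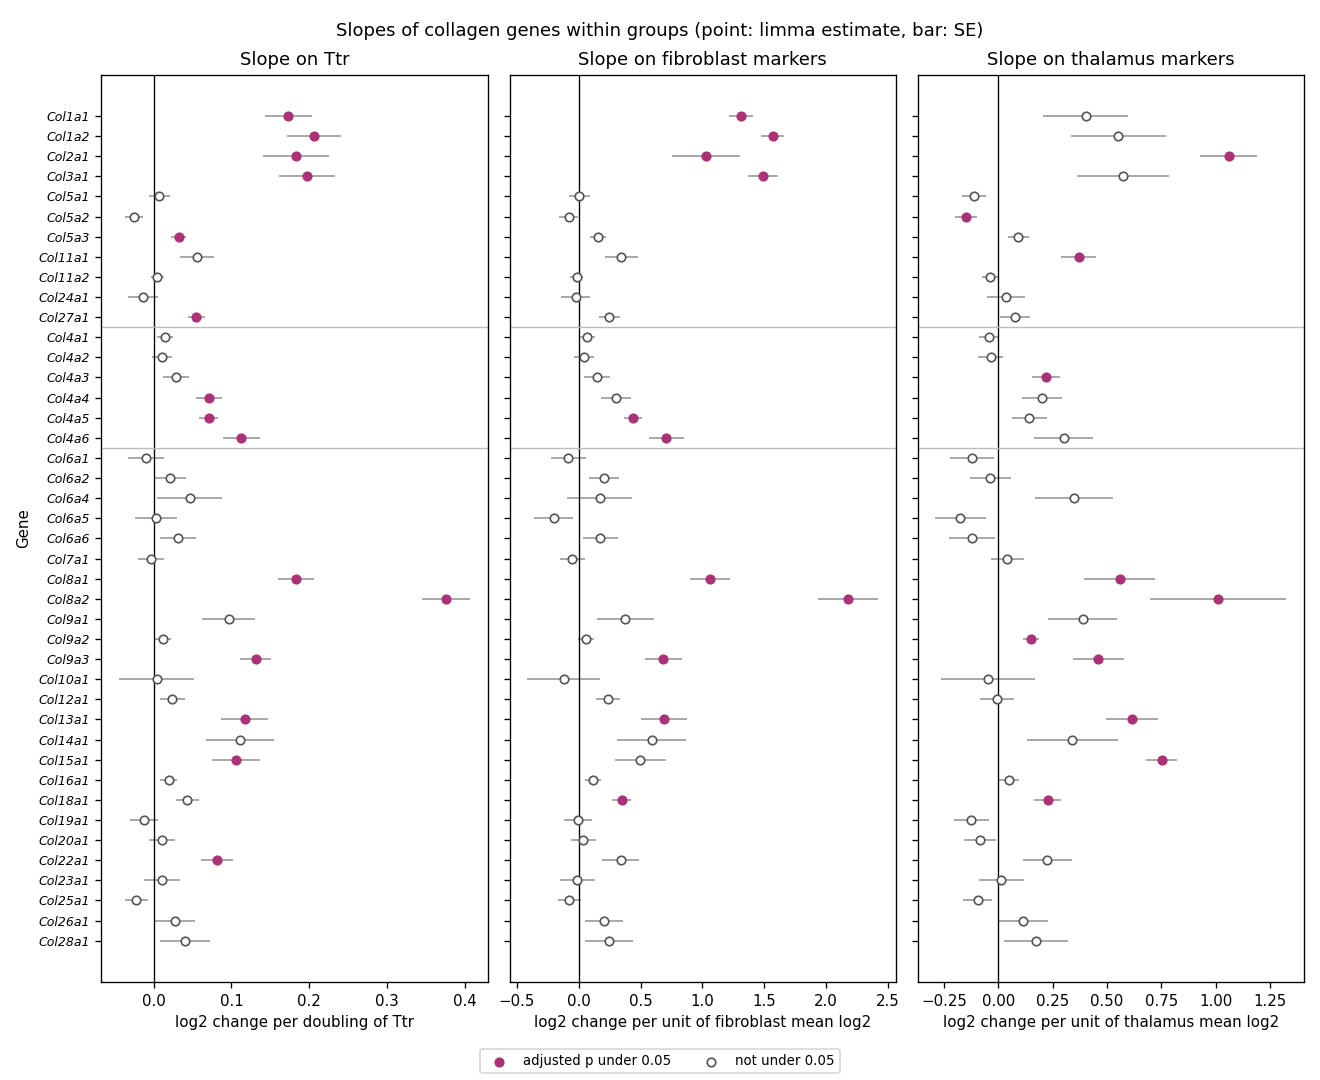
Each row is 1 of the 42 tested collagen genes; points are slopes within groups, in log2 change per doubling of Ttr (left) or per unit of the mean log2 level of the fibroblast list (middle) or thalamus list (right), bars are SE, and filled points passed at an adjusted p under 0.05. Filled points number 15, 11 and 11 from left to right; Col8a2 is farthest right on Ttr, at 0.38, and Col2a1 and Col8a2 on the thalamus list, at 1.06 and 1.01.

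Loss of the ovaries was compared as OVX against SHAM, 7 libraries each, all of the low set. None of the 42 collagen genes was called (0 of 42, and 0% of all tested genes), and 1 had an unadjusted p under 0.05 in limma, where 6.25% of all tested genes did. Changes were below 0 for 23 collagen genes, with a median of -0.018, and for 48.3% of all tested genes, with a median of 0.0043. All 6 type IV genes had changes below 0, with a median of -0.14, and none passed. Of the endothelial markers 6 of 11 had changes above 0, and of the fibroblast markers 10 of 12, with medians of 0.038 and 0.19. Col25a1, a transmembrane collagen of neurons that is also found in amyloid plaques, ran from 1599 to 2382 with a median of 1878 in SHAM and from 1251 to 1914 with a median of 1574 in OVX. The ranges overlapped, and the change was -0.26 (SE 0.11) with a limma adjusted p of 0.795. Col4a3 ran from 373 to 515 with a median of 426 in SHAM and from 257 to 479.9 with a median of 322 in OVX, for a change of -0.24 (SE 0.13) and a limma adjusted p of 0.804. The width of the intervals differed between genes: for Col8a2 the 95% interval of the change was -1.07 to 1.48 and for Col1a1 -0.88 to 0.56, while for Col4a1 it was -0.30 to 0.025. Ttr, at 0.83 (SE 1.51), and Dcn, a proteoglycan of fibroblasts, at -0.0014 (SE 0.21), did not pass either.

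E2 for 5 weeks was compared with vehicle after ovary removal as Prevention against OVX. No collagen gene was called here (0 of 42), where 0.304% of all tested genes were. An unadjusted p under 0.05 in limma was given to 6 collagen genes, 5 lower and 1 higher, a smaller share than the 18.6% of all tested genes. Changes were below 0 for 29 of 42, with a median of -0.088, against 49.8% of all tested genes and a median of 0.00081. Of the 11 fibrillar genes 10 had changes below 0, with a median of -0.15. Of the fibroblast markers, 9 of 12 had changes below 0, with a median of -0.20, while 12 of 13 choroid plexus and 11 of 12 thalamus markers had changes above 0, with medians of 0.48 and 0.34. None of these markers passed, and their part in the values of the collagen genes was not tested. The type VI pair had the smallest p-values. Col6a2 ran from 759 to 1295 with a median of 1129 in OVX, and the 5 Prevention libraries held 719, 591, 706, 864 and 657. The ranges overlapped, although all 5 Prevention libraries were below the OVX median. The change of Col6a2 was -0.58 (SE 0.17) with an adjusted p of 0.0823 by limma. Col6a1 ran from 1279 to 2402 with a median of 1673 in OVX and 1551, 1419, 1588, 1270.3 and 831 in the Prevention libraries, for a change of -0.47 (SE 0.19) and a limma adjusted p of 0.183. The remaining 4 with an unadjusted p under 0.05 were Col5a2, Col5a3 and Col24a1, with changes of -0.22 (SE 0.10), -0.20 (SE 0.091) and -0.33 (SE 0.16), and Col4a3, at 0.33 (SE 0.14). With the library set as a term, estimated from the Treatment libraries, the changes of Col6a2 and Col6a1 were -0.76 and -0.78 and did not pass after adjustment.

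**Figure D4:**
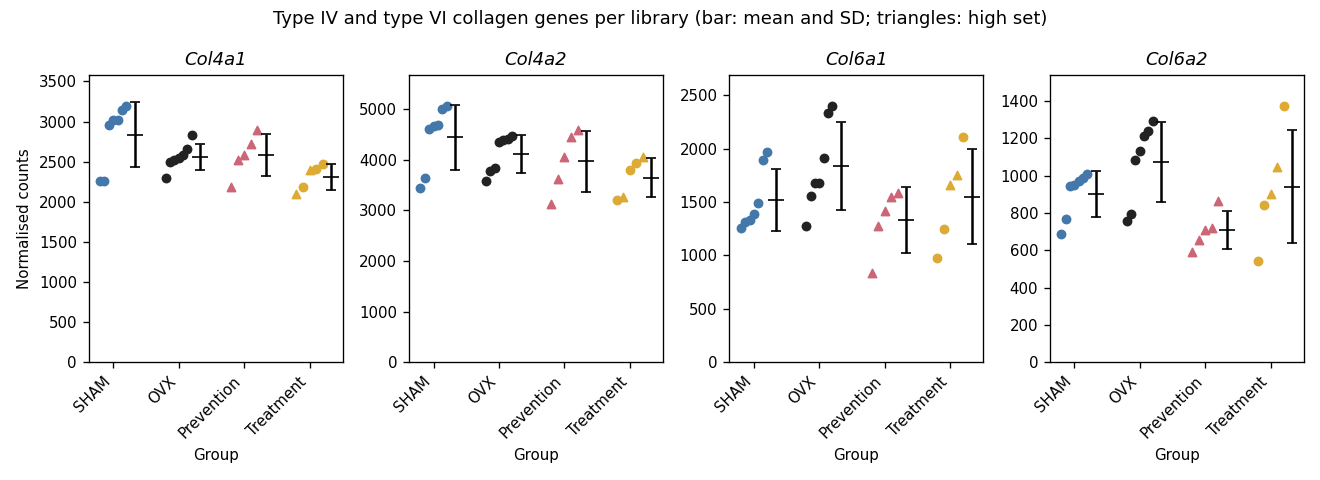
Normalised counts of Col4a1, Col4a2, Col6a1 and Col6a2 in each library by group, with circles for the low set and triangles for the high set, and a bar for the group's mean and SD beside them. All 5 Prevention points of Col6a2 lie under the OVX median of 1129, and all 5 Treatment points of Col4a1 under the SHAM median of 3017, with overlapping ranges.

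Later E2 was compared with vehicle as Treatment against OVX, which shares its OVX libraries with the comparison above. Neither a collagen gene (0 of 42) nor any other tested gene (0%) was called. An unadjusted p under 0.05 in limma was given to 1 collagen gene, against 7.19% of all tested genes. Changes were below 0 for 27 of 42, with a median of -0.075, against 50.6% of all tested genes and a median of -0.0016. All 13 choroid plexus and 8 of 12 thalamus markers had changes below 0, with medians of -0.83 and -0.018. Fibroblast markers had changes above 0 in 8 of 12, with a median of 0.076. None of these markers passed, and their part in the collagen values was not tested. Col5a3 ran from 1729 to 2859.9 with a median of 2456 in OVX, and the Treatment libraries held 1963, 1880.2, 2057, 2089 and 1971. All 5 were below the OVX median and inside the OVX range, with a change of -0.25 (SE 0.091) and a limma adjusted p of 0.653. In the low set alone the change of Col5a3 was -0.21. Col4a1 had the next smallest p, with a change of -0.15 (SE 0.085) and a limma adjusted p of 0.718.

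The schedules of E2 were compared as Treatment against Prevention, 5 libraries each. None of the collagen genes was called (0 of 42, and 0% of all tested genes), and 0 of 42 had an unadjusted p under 0.05 in limma, where 5.38% of all tested genes did. Changes were below 0 for 18 of 42, with a median of 0.025, against 51.1% of all tested genes and a median of -0.0023. All 13 choroid plexus and 11 of 12 thalamus markers had changes below 0, with medians of -1.42 and -0.35. Fibroblast markers had changes above 0 in 9 of 12, with a median of 0.30. None of these markers passed, and their part in the collagen values was not tested. Col6a2 held 899, 1046, 1375, 842 and 545 in the Treatment libraries, from below the lowest to above the highest Prevention library. Its change was 0.36 (SE 0.18) with a limma adjusted p of 0.918. Col24a1, a fibrillar collagen of bone and cornea, held 131, 161, 207, 159 and 205 in Prevention and 252, 162, 189.6, 220.3 and 260.2 in Treatment. Its change was 0.33 (SE 0.17) with a limma adjusted p of 0.918.

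Both E2 groups were also set against SHAM, whose libraries these comparisons share. In Prevention against SHAM 0 of 42 collagen genes were called, where 0.354% of all tested genes were, and 4 of 42, all lower, had an unadjusted p under 0.05 in limma, where 13.3% did. Changes were below 0 for 31 of 42, with a median of -0.11, against 49.1% of all tested genes and a median of 0.0029, and for 10 of 11 fibrillar genes. Of the fibroblast markers 7 of 12 were below 0, with a median of -0.11, and 12 of 13 choroid plexus and 10 of 12 thalamus markers were above 0, with medians of 1.09 and 0.49, none of which passed. Col5a2 ran from 1894 to 2599 with a median of 2154 in SHAM and held 1735, 1432, 2007, 1469.8 and 2128 in the Prevention libraries, for a change of -0.30 (SE 0.10) and a limma adjusted p of 0.20. All 5 Prevention libraries of Col5a2 were below the SHAM median. Col11a2 differed by -0.18 (SE 0.068) and did not pass, at a limma adjusted p of 0.240. The other 2 were Col9a2, at -0.18 (SE 0.084), and Col20a1, named after its values were seen, at -0.32 (SE 0.13).

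In Treatment against SHAM 0 of 42 collagen genes were called, where 0.0062% of all tested genes were. An unadjusted p under 0.05 in limma was given to 4 of 42, all lower, where 6.1% of all tested genes had one. Changes were below 0 for 28 of 42, with a median of -0.087, against 48.4% of all tested genes and a median of 0.0037. Choroid plexus markers had changes below 0 in 12 of 13, with a median of -0.42. Changes were above 0 for 10 of 12 fibroblast, 7 of 12 thalamus and 8 of 11 endothelial markers, with medians of 0.17, 0.070 and 0.021. None of these markers passed, and their part in the collagen values was not tested. The vessel wall pair of type IV had the smallest p-values. Col4a1 ran from 2262 to 3198 with a median of 3017 in SHAM, and the Treatment libraries held 2094, 2402, 2184, 2403 and 2475. Col4a2 ran from 3432 to 5065 with a median of 4656 in SHAM, and the Treatment libraries held 3256, 4052, 3197, 3927 and 3793. For both genes all 5 Treatment libraries were below the SHAM median and the ranges overlapped. The change was -0.29 (SE 0.085) for Col4a1 and -0.28 (SE 0.10) for Col4a2, with limma adjusted p-values of 0.562 and 0.678. In the low set alone, with 3 Treatment libraries, the change of Col4a1 was -0.26. Cldn5, a tight junction gene of brain endothelium, differed by 0.021 (SE 0.053). The other 2 were Col11a2, at -0.18 (SE 0.068), and Col20a1, at -0.32 (SE 0.13).

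**Figure D5:**
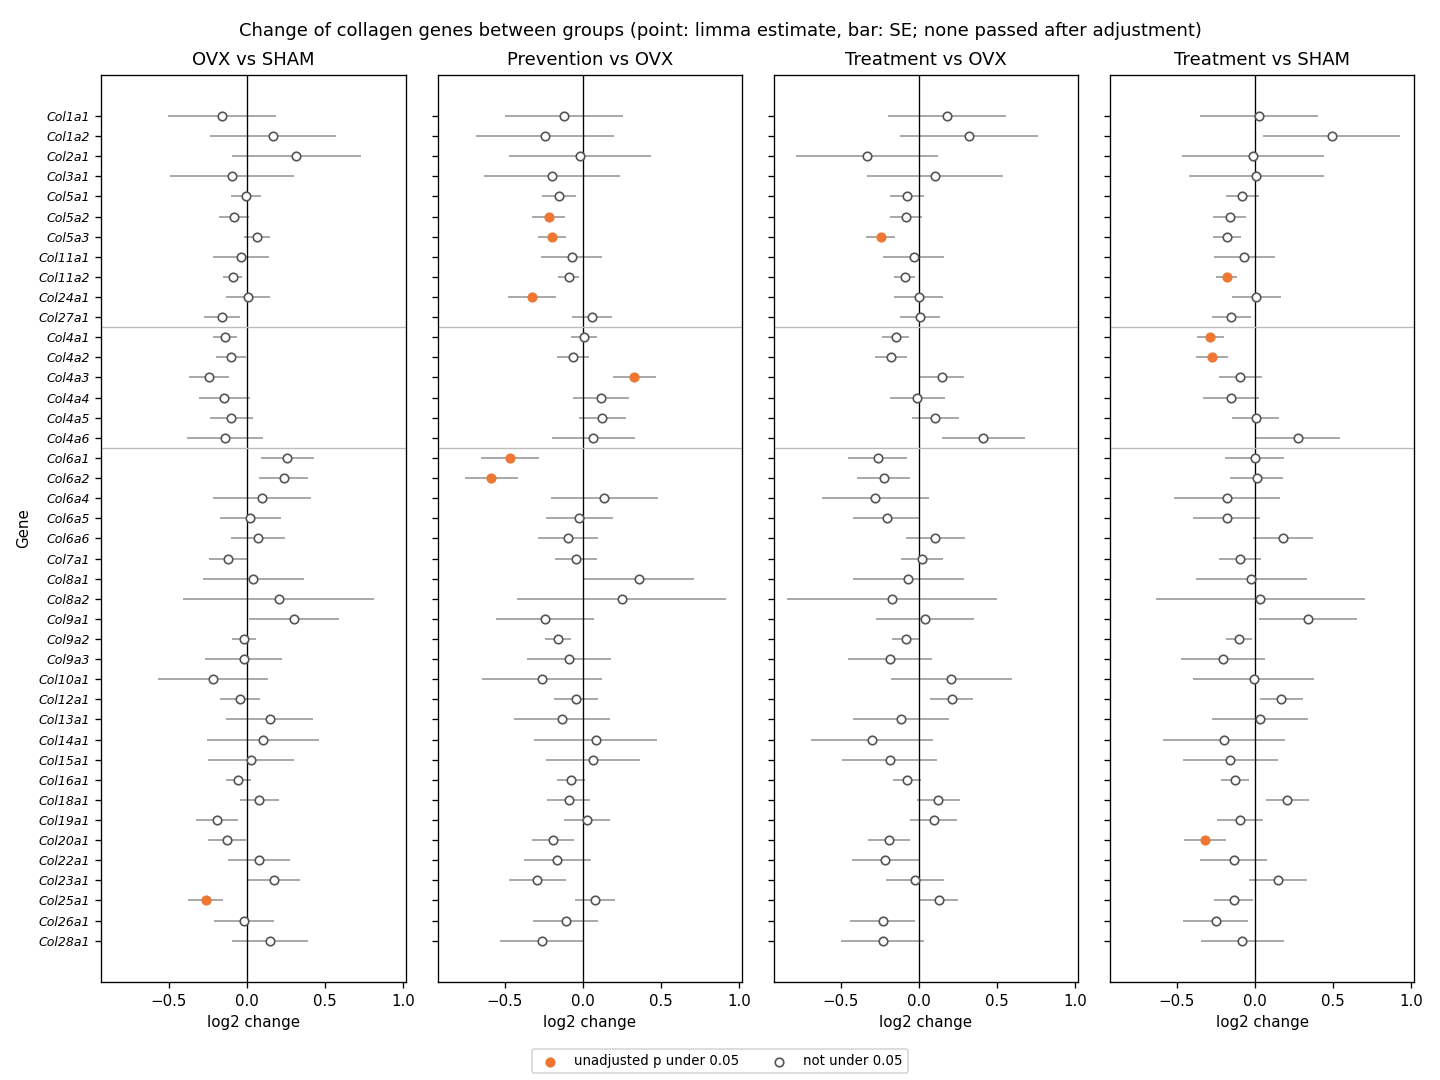
Each row is 1 of the 42 tested collagen genes; points are log2 changes between groups in 4 of the 6 comparisons, bars are SE, and filled points had an unadjusted p under 0.05. No gene passed after adjustment; the bars of Col8a2 are wide and those of Col4a1 and Col11a2 narrow, and filled points number 1, 6, 1 and 4 from left to right.

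The genes that make, bind and break down collagen gave a single call between groups. Fn1, fibronectin, a matrix protein that binds collagen, ran from 1732 to 2167 with a median of 1917 in OVX and held 3284, 2389, 2382, 2575 and 3003 in the Prevention libraries. All 5 were above the OVX range, and Fn1 was higher in Prevention than in OVX by 0.48 (SE 0.090) with a limma adjusted p of 0.0248. It was the only one of 16 tested basement membrane partners to pass in that comparison, with 0 of 30 genes for processing, 0 of 9 receptors and 0 of 11 genes for breakdown, where 0.304% of all tested genes passed. The 5 Treatment libraries of Fn1, at 3057, 2549, 2423, 2299 and 2287, were also above the OVX range, with a change of 0.37 (SE 0.090) that did not pass (limma adjusted p = 0.429). The call of Fn1 was lost without any 1 of 6 libraries, Prevention replicates 1, 3 and 5 and OVX replicates 1, 2 and 3, with limma adjusted p-values of up to 0.0912. With the library set as a term the change was 0.22 and did not pass (limma adjusted p = 0.999), and the library set and the Prevention group cannot be told apart for this call.

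On the slope on Ttr 4.69% of all tested genes were called higher and 1.97% lower. Of the genes of these lists, 4 of 11 breakdown genes were higher and 0 lower, 5 of 16 partners higher and 1 lower, and 5 of 30 processing genes higher and 1 lower. None of the 9 collagen receptors passed. Mmp2, a gelatinase, and Mmp14, the membrane protease that activates it, had slopes of 0.19 (SE 0.015) and 0.20 (SE 0.023). The laminin chains Lama3, Lama2 and Lama5, which lie beside type IV collagen, had slopes of 0.22 (SE 0.021), 0.16 (SE 0.020) and 0.11 (SE 0.016). Timp3, a matrix-bound inhibitor of metalloproteases, had a slope of 0.063 (SE 0.010). The genes called lower, named after their values were seen, were Lamb1, a laminin chain, at -0.025 (SE 0.0075) and P4ha1, a prolyl hydroxylase of collagen, at -0.028 (SE 0.0080). Leaving out any 1 of 13 libraries ended the call of each, with limma adjusted p-values of up to 0.153 for Lamb1 and 0.0821 for P4ha1. With the fibroblast list beside Ttr, Mmp2 and Lama3 passed on Ttr, and the other 6 genes named here did not.

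Promoter windows of 250 bases were found in the RefSeq table for 34 of the 43 collagen genes. A GC box, GGGCGG on either strand, stood in 19 of the 34, among them Col8a1 and Col8a2, against 30.5% of all 33469 windows of that length. A CCAAT box stood in 11 of the 34, against 34.0% of all windows, and a TATA box, TATAAA, in 4 of the 34, against 12.9%. Each collagen gene gave its first window only, while every RefSeq window of that length went into the other share, so these shares are not like for like. The motifs are matches of letters and not sites of binding. In the gene table the spans of 7 genes overlap that of another protein-coding gene, and overlap of exons was not examined. The counting is not stated to use strand, so the values of these 7 genes may be uncertain, which was not tested. They were Col1a1, with Sgca, Col10a1, with Nt5dc1, Col20a1, with Chrna4, Col4a6, with LOC103690888, and Col6a4, Col6a5 and Col6a6, with Rpl29.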

How the data were processed

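RNA from hippocampal tissue was sequenced in 24 libraries, grouped by the labels. Per the submitters' processing notes, kallisto 0.43 and DESeq2, named with no version, were used. The genome build was not given in the sources used here, nor was the annotation. As deposited, values are normalised counts per gene and library, made by the authors, and were treated as a signal. They are not whole and none is negative, and no 2 libraries were identical. A library's total over its smallest step estimated its depth. Values picked for lying close to 2 steps had medians of 1.99 to 2.01 steps. That picking alone keeps the medians near 2, so they do not check the step or the depth. Read counts were not recovered, so no counting interval is given and precision rests on the spread between libraries.

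On the scale log2(normalised count + 1), limma 3.58.1 (R 4.3.3) tested genes whose mean was at least 10. All 24 libraries went into a single fit with group means and a trended prior variance, 6 contrasts were taken, and p-values were adjusted over all tested genes by Benjamini-Hochberg at a threshold of 0.05. Fold changes on this scale understate those of low genes. For slopes the covariate was added to the group means, and the genes of the covariate were left out of the test. The script was tested on simulated data. The replicate number was not used as a block: deviations from the group means of 30 same-numbered pairs correlated at -0.44 to 0.37, with 8 over 0.1. The 184 pairs of different number correlated at -0.43 to 0.53, with 73 over 0.1. Correlations between collagen genes used 1e+05 permutations in scipy 1.17.1, and figures matplotlib 3.10.9. Promoter windows, gene starts and overlaps came from RefSeq tables of GRCr8, used for no other coordinate, and 15697 of 20318 feature names matched.

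The collagen genes and all lists were chosen with earlier results of these data known. Named were up to 6 genes per type with the highest mean, those called in a comparison or on Ttr, the 2 smallest p-values of a comparison with no call, Ttr, Dcn, Cldn5, and up to 6 pathway genes. Lists of mural cells, oligodendrocytes, astrocytes and microglia were measured only: their sums ran from 7549 to 11309, 240463 to 464031, 79880 to 105235 and 5195 to 7372. The slope and covariate of the thalamus list were chosen after seeing the data. The alternatives were pseudocounts of 0.5 and 8, a minimum mean of 100 or none, quantile normalisation, a replicate block, the library set, the compared groups or a set alone, Ttr or lists as covariates, and leaving out libraries.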

Additional observations from a re-analysis of the deposited data

Results flagged for a closer look

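In groups of 4 to 10 libraries, a library was singled out where its gap to the nearest other was a large share of the group's range (Dixon's test at the 95% level). The test was run on normalised counts and not on the log2 scale. Ttr and the 28 named collagen genes gave 116 groups, of which 11 were singled out. Chance flags about 1 in 20 groups only where values are normally distributed, which was not tested for these counts. The 11 are therefore not an excess over that share. On the log2 scale the Ttr of SHAM replicate 7 was 17.06, with the rest of its group at 8.59 to 14.50. SHAM replicate 7 stood above its group in Ttr at 136652, where the next library held 23186, and in Col8a2 at 1098, Col8a1 at 971 and Col9a3 at 2301. Treatment replicate 6 stood above its group in Ttr at 71606, Col15a1 at 299.9, Col2a1 at 267 and Col4a4 at 989. SHAM replicate 5 stood apart in Col15a1 at 303, and OVX replicate 2 in Col2a1 at 332. Prevention replicate 3 stood apart in Col11a2 at 17105, where the other 4 held 14627 to 14835; it also had the highest LOC257642, at 19.73 on the log2 scale. SHAM replicate 5, Treatment replicate 6 and OVX replicate 2 were among the 5 libraries with the highest thalamus markers, as given above. The part of these markers in the single values was not tested.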

How the results depend on the processing

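The count of collagen genes called was 0 in each of the 6 comparisons under all alternatives run, 35 for the comparisons of Prevention with OVX and SHAM and 36 for the others. The 12 single changes named by smallest p kept their direction and stayed unpassed in all 428 values. The call of Fn1 held in 26 of 35 and was lost with the block and in the compared groups alone, among others. For Prevention against OVX and SHAM no fit within a library set was possible. For the slope on Ttr, with 15 genes called, the count was 10 to 17 when single libraries were left out, 8 with the replicate block, 1 with the fibroblast list as a second covariate and 9 with the thalamus list. For the fibroblast slope, with 11, it was 9 to 12 without single libraries, 7 with the block, 7 in the low set alone and 3 beside Ttr. For the endothelial slope, with 11, it was 8 to 16 without single libraries, 2 with the block, 4 without the 2 libraries farthest from the median, 7 in the low set and 0 beside Ttr. For the thalamus slope, with 11, it was 7 without OVX replicate 2 and 17 without SHAM replicate 5, which bound the range, 5 in the low set and 5 beside Ttr. Beside the fibroblast list the Ttr slopes of Col1a2, Col1a1 and Col3a1 turned to -0.036, -0.028 and -0.030, and beside Ttr the endothelial slope of Col8a2 turned to -1.14; the cause was not tested. Of the other slope values 1681 kept their call and 257 lost it. The replicate numbers only name samples; the block changed no other count by over 1.5 times.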
